A study of Mus musculus with 3 samples.

Results

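The solute carriers of the blood-brain barrier are membrane proteins that bring nutrients into the brain and carry waste and foreign compounds out of it. They were followed here as 34 listed genes out of the 29917 genes measured in isolated brain vessels of the mouse. The 34 genes were taken from a list of known carriers and sorted by what they carry, and the list was drawn up with earlier results of these data known. A measured value entered the rule only in that each gene is given by its transcript row with the largest total count.

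Brain vessels are lined by endothelial cells joined by tight junctions, so that small polar molecules pass between blood and brain mainly through carriers in the endothelial membranes. The carriers form families by sequence and fold, and each family has a typical cargo, such as glucose, amino acids, lactate, thyroid hormone, vitamins or metal ions. Some of them are also found in pericytes, in the endfeet that astrocytes lay around vessels, or in the choroid plexus, the tissue that secretes cerebrospinal fluid.

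The series held 3 libraries of polyadenylated RNA from brain vessels of mice aged 3 months, each made from the pooled vessels of 3 male mice. The Cx30-/- mice lack connexin 30, a gap junction protein of astrocytes encoded by Gjb6, in all cells of the body and not in astrocytes alone. The other groups were C57BL6 WT and C57BL6-BALB/c WT, wild-type mice of an inbred and of a mixed background. For the background of the Cx30-/- library the sample label gives C57BL6 and the methods of the study give the mixed background, so the matching WT library is uncertain and both were used.

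With 1 library per group there was no spread between replicates and no test was possible. Ratios between libraries are given on the log2 scale with a 95% exact binomial (Clopper-Pearson) interval. With 1 pooled library per group, these intervals cover counting error only and not the variation between mice or vessel preparations. Reads carried no molecular identifiers, so copies of a molecule cannot be told from separate molecules, and the intervals may be too narrow. Both comparisons of the Cx30-/- library share that library and are not independent. The gap between the WT libraries was the only available yardstick, and it holds background, mice and preparation together.

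The deposited counts summed to between 50375426 and 60725557 per library, and Gjb6 counted 2899 in C57BL6 WT, 2246 in C57BL6-BALB/c WT and 96 in Cx30-/-. Counts were divided by size factors of 1.15, 0.93 and 0.95 in the same order, which gave normalized counts. All 10 endothelial markers passed 50 normalized counts in every library, but so did all neuron, oligodendrocyte, astrocyte, microglia, ependymal and choroid plexus markers, so RNA of other brain tissue was present besides that of vessels. The endothelial markers summed to 38075, 21069 and 43360 normalized counts per kilobase of transcript in C57BL6 WT, C57BL6-BALB/c WT and Cx30-/-. The 8 choroid plexus markers summed higher than the endothelial ones, to 227721, 87823 and 118582 normalized counts per kilobase in that order, nearly all of it Ttr. No marker of any list was at 0 in any library. In bulk RNA, fewer cells of a type and less RNA per cell cannot be told apart.

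The stretches upstream of the start sites are shown for Slc2a1, the most abundant carrier, and for 4 others. These had the highest ratios of Cx30-/- over C57BL6-BALB/c WT among the 27 carriers for which an upstream stretch was available. Slc40a1, with a log2 ratio of 1.17, was not among the 27. Each is the 250 bases before the RefSeq start site on GRCm38.p6, written along the gene's own strand, with capitals marking a match to one of the motifs searched. They lie at chr4:119108495-119108744 on the plus strand, chr6:141856221-141856470 on the minus strand, chr3:135825029-135825278 on the plus strand, chrX:8271131-8271380 on the plus strand and chr1:83038449-83038698 on the minus strand. The start of the Slco1a4 transcript measured here lies 10752 bases from the RefSeq start, whereas the other 4 starts lie within 100 bases.
Slc2a1: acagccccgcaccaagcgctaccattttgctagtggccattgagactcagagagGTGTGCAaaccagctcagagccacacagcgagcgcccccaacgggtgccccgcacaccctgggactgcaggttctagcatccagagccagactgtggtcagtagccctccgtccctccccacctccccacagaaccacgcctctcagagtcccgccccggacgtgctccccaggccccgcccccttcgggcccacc
Slco1a4: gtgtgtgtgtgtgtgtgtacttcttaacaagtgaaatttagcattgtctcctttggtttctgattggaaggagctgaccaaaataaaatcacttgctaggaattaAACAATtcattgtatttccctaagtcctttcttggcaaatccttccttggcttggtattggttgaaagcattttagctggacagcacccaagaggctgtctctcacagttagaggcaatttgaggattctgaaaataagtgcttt
Slc39a8: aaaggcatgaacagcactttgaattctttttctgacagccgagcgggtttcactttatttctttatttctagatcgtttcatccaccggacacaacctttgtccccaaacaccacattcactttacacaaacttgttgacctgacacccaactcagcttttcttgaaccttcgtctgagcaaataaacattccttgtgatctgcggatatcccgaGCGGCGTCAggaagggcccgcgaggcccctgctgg
Slc38a5: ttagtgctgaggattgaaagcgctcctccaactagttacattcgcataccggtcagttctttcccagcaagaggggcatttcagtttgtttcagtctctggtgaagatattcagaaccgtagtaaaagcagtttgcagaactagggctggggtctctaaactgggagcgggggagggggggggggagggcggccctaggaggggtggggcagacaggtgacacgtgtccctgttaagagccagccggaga
Slc19a3: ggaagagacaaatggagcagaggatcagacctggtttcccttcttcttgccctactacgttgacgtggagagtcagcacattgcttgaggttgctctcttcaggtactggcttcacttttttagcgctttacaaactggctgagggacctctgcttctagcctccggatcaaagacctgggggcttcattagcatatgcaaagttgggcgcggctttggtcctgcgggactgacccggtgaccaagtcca
Positions below count back from the start site, with the base before it at -1. The capitals in the Slc2a1 stretch are a metal response element core, TGCACNC or TGCGCNC, on the opposite strand at -196 to -190. Those in Slco1a4 are a SOX core, AACAAT, at -145 to -140. Those in Slc39a8 are an antioxidant response element core, TGACNNNGC, on the opposite strand at -35 to -27. Slc38a5 and Slc19a3 held no match in this window.

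Each of the 27 carriers was given 1 stretch, that of the RefSeq start nearest the measured transcript, whereas the comparison used every available stretch. That start lay within 100 bases of the measured one for 20 of the 27. Among the 27 carriers, the antioxidant core was present in 8 (29.6%), against 10.2% of the 32851 available upstream stretches. Both strands were searched. The metal core was present in 5 (18.5%) against 21.4%, the SOX core in 1 (3.7%) against 9.42%, and the ETS core CCGGAAG in 1 (3.7%) against 6.91%. The amino acid response core TGATGNAA was present in 1 (3.7%) against 3.45%, and TATAAA in 3 (11.1%) against 12.4%. The stretches of the carriers had a median GC content of 61.2% against 52.4% for all available stretches, so that the shares are not matched for base composition. A match of letters is a description of the sequence and does not show binding.

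All 34 carriers passed 50 normalized counts in every library, with raw counts from 127 to 43219. Levels between genes were compared as normalized counts per kilobase of transcript. Their sum over the 34 carriers was 56117 in C57BL6 WT, 40828 in C57BL6-BALB/c WT and 66316 in Cx30-/-. The 10 carriers of amino acids and related solutes made up 32.5% of that summed level over the 3 libraries, and Slc2a1 alone made up 26.2%. The 6 carriers of organic anions, thyroid hormone and prostaglandins made up 22.2%. Metals, ions and inositol took 6.2%, monocarboxylates and fatty acids 6.0%, vitamins 3.9% and nucleosides and monoamines 3.1%.

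**Figure D1:**
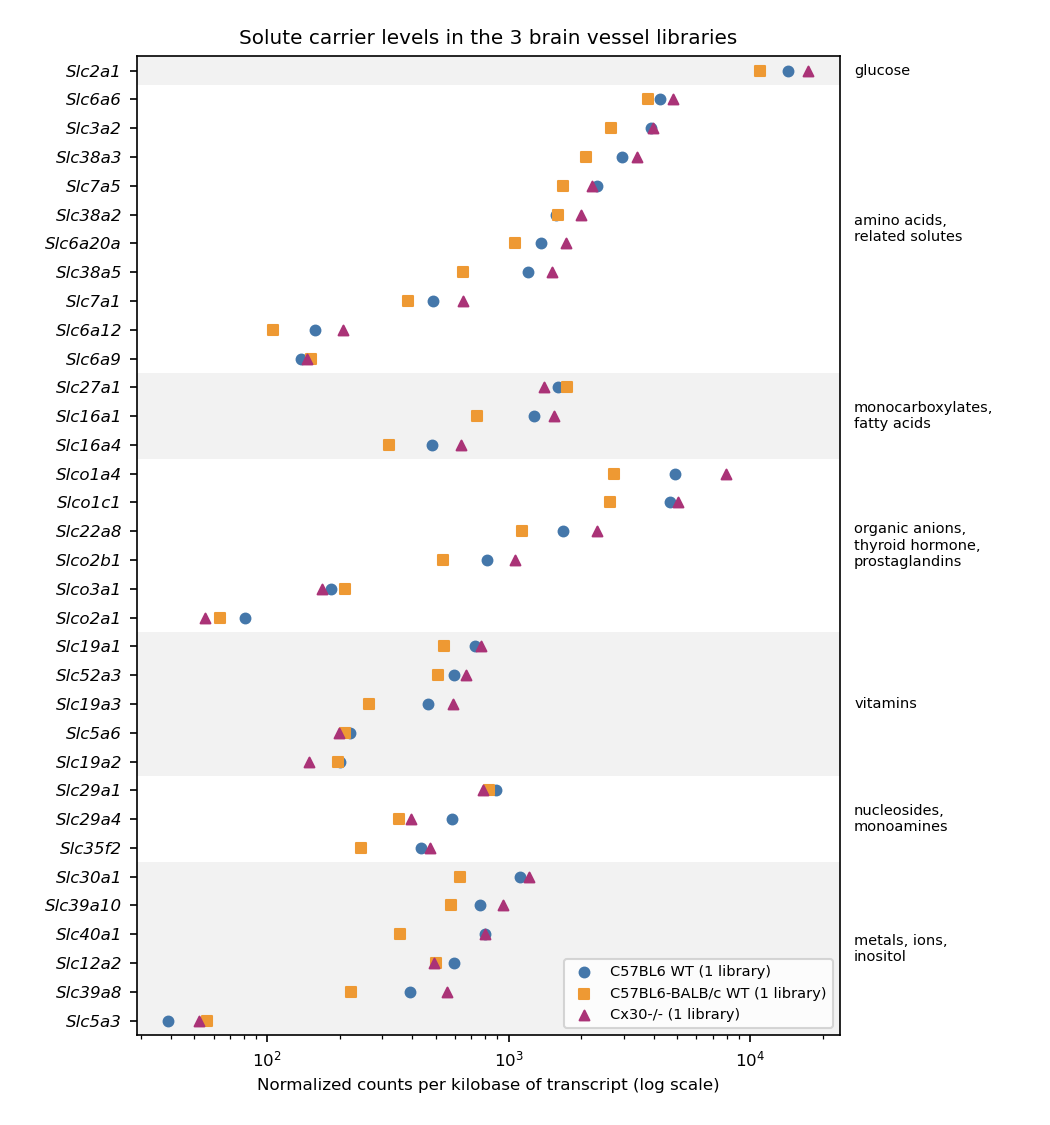
Levels of the 34 solute carriers in normalized counts per kilobase of transcript (log scale), 1 point per library, grouped by cargo and ordered by mean level within each group. Slc2a1 lies highest in every library. With the size factors used, the C57BL6-BALB/c WT library is the lowest of the 3 for 24 of the 34 carriers, against 41.2% of 14979 genes. When libraries are scaled to the endothelial markers, 25 carriers are higher in it than in C57BL6 WT, and the median log2 ratio of all genes is 0.75.

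Glucose enters the brain through GLUT1, the product of Slc2a1 (ENSMUSG00000028645, chr4:119108711-119137983). Its level was 14302 normalized counts per kilobase in C57BL6 WT, 11045 in C57BL6-BALB/c WT and 17391 in Cx30-/-. It was the highest of the 34 in every library, and its mean level exceeded that of 99.8% of all genes. The log2 ratio of Cx30-/- was 0.28 (95% interval 0.26 to 0.30) over C57BL6 WT and 0.65 (0.63 to 0.68) over C57BL6-BALB/c WT. The WT libraries differed from each other by a log2 ratio of -0.37, which is larger in size than the difference between Cx30-/- and C57BL6 WT.

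The carriers of amino acids were led by Slc6a6, the taurine transporter, with 4254 normalized counts per kilobase in C57BL6 WT, 3784 in C57BL6-BALB/c WT and 4787 in Cx30-/-. The 3 libraries lay close together for this gene, at log2 ratios of 0.17 and 0.34 for Cx30-/- over the WT libraries. Large neutral amino acids, and drugs such as L-DOPA, are carried by the transport chain LAT1 (Slc7a5), paired with the heavy chain Slc3a2. Slc7a5 stood at 8166 normalized counts in C57BL6 WT, 5870 in C57BL6-BALB/c WT and 7799 in Cx30-/-, and Slc3a2 had 7235, 4952 and 7401 in the same order. Both chains were thus at like levels in C57BL6 WT and Cx30-/- and lower in C57BL6-BALB/c WT. Per kilobase, Slc3a2 stood at 1.66, 1.58 and 1.78 times the level of Slc7a5 in C57BL6 WT, C57BL6-BALB/c WT and Cx30-/-.

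The sodium-coupled glutamine carriers differed among themselves. Slc38a5 (SNAT5; chrX:8271133-8280179) stood at 2259 normalized counts in C57BL6 WT, 1210 in C57BL6-BALB/c WT and 2832 in Cx30-/-. The Cx30-/- library was thus highest, with a log2 ratio of 0.33 (0.25 to 0.40) over C57BL6 WT and 1.23 (1.13 to 1.33) over C57BL6-BALB/c WT. Slc38a3 (SNAT3) had 7154, 5105 and 8302 normalized counts, with log2 ratios of 0.21 and 0.70. Slc38a2 (SNAT2), a carrier that cells induce when amino acids are scarce, had 7258, 7431 and 9190 normalized counts, and was the member of this trio in which the WT libraries were nearly level. The ratio of the Slc38a3 level to the Slc38a5 level, per kilobase, was accordingly 2.43 in C57BL6 WT, 3.24 in C57BL6-BALB/c WT and 2.25 in Cx30-/-.

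The remaining amino acid carriers were Slc7a1 (CAT1), which carries arginine and lysine, Slc6a20a, which carries proline and related imino acids, Slc6a12, which carries betaine and GABA, and Slc6a9, the glycine transporter GLYT1. Slc7a1, Slc6a20a and Slc6a12 were highest in Cx30-/- and lowest in C57BL6-BALB/c WT, with log2 ratios of 0.34 to 0.41 over C57BL6 WT and 0.70 to 0.96 over C57BL6-BALB/c WT. Slc6a9 stood apart with 1882, 2052 and 1977 normalized counts, and the intervals of its ratios for Cx30-/- reached over 0 in both comparisons. Of the 10 genes, 8 were higher in Cx30-/- than in both WT libraries, against 36.4% of 14979 genes, and 2, Slc7a5 and Slc6a9, lay between them. Such counts depended on the scaling, as given below for all carriers. Slc6a20a shares 15.2% of its exon bases with the opposite-strand gene Gm17120, and the kit does not mark strand, so part of its reads may belong to that gene.

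Lactate and ketone bodies cross the endothelium through MCT1, the product of Slc16a1 (chr3:104638668-104658462). It stood at 5658 normalized counts in C57BL6 WT, 3291 in C57BL6-BALB/c WT and 6830 in Cx30-/-, so that the mixed WT library was the one set apart. The log2 ratio of Cx30-/- was 0.27 (0.22 to 0.32) over C57BL6 WT and 1.05 (0.99 to 1.12) over C57BL6-BALB/c WT. Slc16a4, of the same family, had 1087, 722 and 1428 normalized counts and log2 ratios of 0.39 and 0.98. Slc27a1 (FATP1), a fatty acid carrier, was the most abundant of this class per kilobase in both WT libraries, while Slc16a1 exceeded it in Cx30-/- (1543 against 1397 normalized counts per kilobase). It went the other way, with 4486, 4904 and 3904 normalized counts. Its Cx30-/- value was the lowest of the 3, at log2 ratios of -0.20 (-0.26 to -0.14) and -0.33 (-0.39 to -0.27).

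Among the carriers of organic anions, Slco1a4 (OATP1A4; ENSMUSG00000030237, chr6:141805440-141856199) stood out. It moves bile salts, steroid conjugates and many drugs. It stood at 17533 normalized counts in C57BL6 WT, 9777 in C57BL6-BALB/c WT and 28653 in Cx30-/-. The Cx30-/- value was 1.63 times that of C57BL6 WT and 2.93 times that of C57BL6-BALB/c WT, at log2 ratios of 0.71 (0.68 to 0.73) and 1.55 (1.52 to 1.59). The gap between the WT libraries, a log2 ratio of -0.84, was larger than the gap between Cx30-/- and C57BL6 WT. When all libraries were scaled to the 10 endothelial markers, the log2 ratios for Slco1a4 were 0.50 and 0.60. The Slco1a genes lie side by side and resemble each other, and the authors removed reads that matched more than once, so reads shared with near-identical copies are not in these counts.

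Slco1c1 (OATP1C1), the thyroxine carrier of the barrier, had 12468, 7070 and 13529 normalized counts in C57BL6 WT, C57BL6-BALB/c WT and Cx30-/-. The C57BL6 WT and Cx30-/- libraries were near each other and the mixed WT library was lower, at a log2 ratio of 0.94 for Cx30-/- over it. Per kilobase, Slco1a4 stood at 1.05 and 1.03 times the level of Slco1c1 in C57BL6 WT and C57BL6-BALB/c WT and at 1.58 times in Cx30-/-. Slc22a8 (OAT3; chr19:8591254-8611835), which clears organic acids from brain to blood, had 5810, 3898 and 8008 normalized counts. Cx30-/- was the highest of the 3, with log2 ratios of 0.46 (0.42 to 0.51) over C57BL6 WT and 1.04 (0.98 to 1.10) over C57BL6-BALB/c WT. Slco2b1 (OATP2B1), a carrier of steroid conjugates, had 3570, 2343 and 4650.4 normalized counts, and 10.8% of its exon bases are shared with the opposite-strand gene Gm15635.

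The prostaglandin carrier Slco2a1 ran against its relatives, with 326, 257 and 222 normalized counts. Its ratios were -0.55 (-0.80 to -0.30) and -0.21 (-0.48 to 0.06) on the log2 scale. Slco3a1, which also accepts prostaglandins, had 844, 968 and 773 normalized counts. Its log2 ratio for Cx30-/- over C57BL6 WT was -0.13 with an interval that held 0 (-0.27 to 0.01), and its direction depended on the transcript row used. Over C57BL6-BALB/c WT it was -0.32 (-0.47 to -0.18). The level of Slco2b1 per kilobase was 10.1 times that of Slco2a1 in C57BL6 WT, 8.42 times in C57BL6-BALB/c WT and 19.3 times in Cx30-/-.

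The vitamin carriers showed the same division within a family. Slc19a3 and Slc19a2 both carry thiamine. Slc19a3 (chr1:83012523-83038448) stood at 1379 normalized counts in C57BL6 WT, 788 in C57BL6-BALB/c WT and 1751 in Cx30-/-, with log2 ratios of 0.34 (0.24 to 0.44) and 1.15 (1.02 to 1.28). Slc19a2 had 710, 696 and 527 normalized counts, with log2 ratios of -0.43 (-0.59 to -0.27) and -0.40 (-0.57 to -0.23). The first was thus highest and the second lowest in Cx30-/-, and the WT libraries were near each other for Slc19a2 but not for Slc19a3. Per kilobase, Slc19a3 stood at 2.31, 1.35 and 3.95 times the level of Slc19a2 in C57BL6 WT, C57BL6-BALB/c WT and Cx30-/-.

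Slc19a1, the reduced folate carrier and the most abundant vitamin carrier per kilobase, had 725 normalized counts per kilobase in C57BL6 WT, 538 in C57BL6-BALB/c WT and 767 in Cx30-/-. The interval of its ratio for Cx30-/- over C57BL6 WT reached from -0.01 to 0.18. Slc52a3, a riboflavin carrier, had log2 ratios of 0.17 and 0.38. Slc5a6, which carries biotin and pantothenate, had 706, 677 and 640 normalized counts, and both of its intervals for Cx30-/- held 0.

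Slc29a1 (ENT1), the nucleoside carrier with the highest level of its class, had 888, 830 and 784 normalized counts per kilobase in C57BL6 WT, C57BL6-BALB/c WT and Cx30-/-. It shares 14.2% of its exon bases with the opposite-strand gene Gm17080. Slc29a4 (PMAT), which carries monoamines and is also known from the choroid plexus, had 1587, 958 and 1074 normalized counts. C57BL6 WT was the library set apart, with a log2 ratio of -0.56 (-0.67 to -0.45) for Cx30-/- over it and 0.17 (0.03 to 0.30) over C57BL6-BALB/c WT. The 8 choroid plexus markers had median log2 ratios of -0.61 and 0.47 in the same comparisons, and -1.22 between the WT libraries, where Slc29a4 had -0.73. Their part in the Slc29a4 values was not tested. Slc35f2, of a family that includes nucleotide sugar carriers, had 1022, 576 and 1116 normalized counts.

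Among the metal carriers, Slc30a1 (ZNT1), which exports zinc from cells, had the highest level, with 1119 normalized counts per kilobase in C57BL6 WT, 630 in C57BL6-BALB/c WT and 1220 in Cx30-/-. Slc39a8 (ZIP8; chr3:135825279-135888572) brings zinc, manganese and iron into cells. It had 1298, 733 and 1843 normalized counts, and the Cx30-/- library was the highest, at log2 ratios of 0.51 (0.41 to 0.61) over C57BL6 WT and 1.33 (1.20 to 1.46) over C57BL6-BALB/c WT. The level of the exporter per kilobase was 2.85, 2.84 and 2.19 times that of Slc39a8 in C57BL6 WT, C57BL6-BALB/c WT and Cx30-/-. Slc39a10 (ZIP10), another zinc importer, had 4202, 3180 and 5195 normalized counts.

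Slc40a1 (ferroportin; chr1:45908068-45926523) is the only known exporter of iron. It stood at 2695 normalized counts in C57BL6 WT, 1197 in C57BL6-BALB/c WT and 2700.3 in Cx30-/-. The C57BL6 WT and Cx30-/- libraries did not differ beyond counting error, at a log2 ratio of 0.00 (-0.07 to 0.08). The mixed WT library was lower than both, at 1.17 (1.07 to 1.28) for Cx30-/- over it. Slc12a2, a cotransporter of sodium, potassium and chloride that is also known from the choroid plexus, had 4465, 3760 and 3659 normalized counts. Slc5a3, which carries inositol, was the least abundant of the 34, with 111, 160 and 148 normalized counts, and its interval for Cx30-/- over C57BL6-BALB/c WT reached from -0.46 to 0.23.

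**Figure D2:**
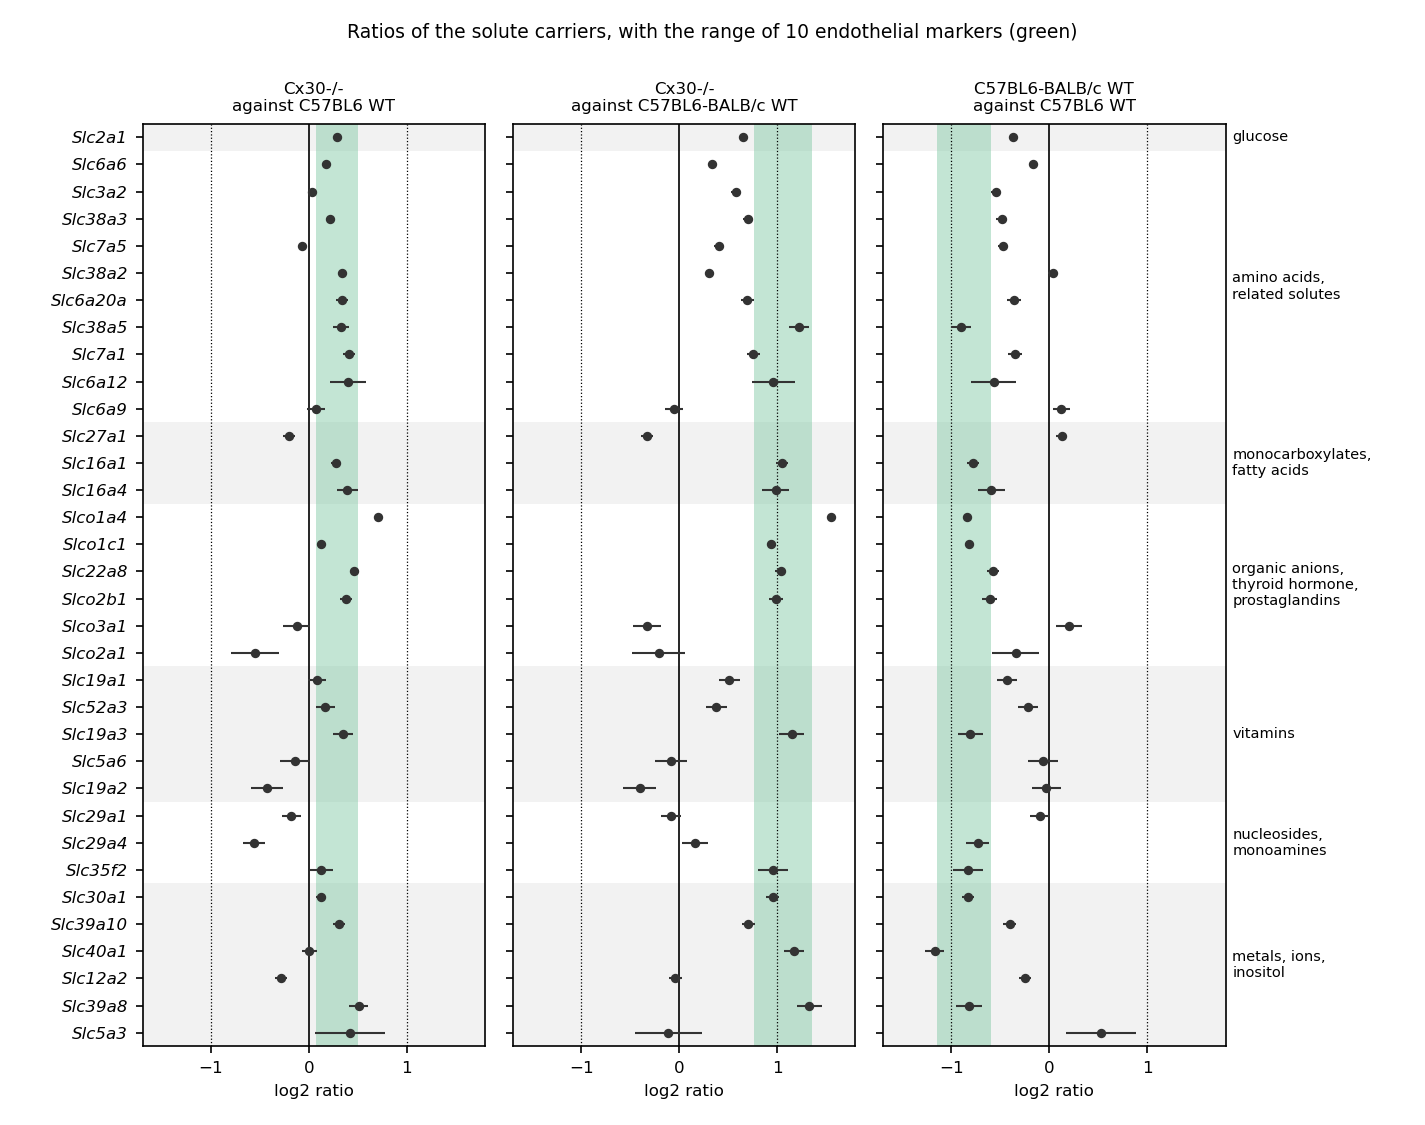
Log2 ratios of normalized counts for the 34 solute carriers in the 3 comparisons of libraries (points), with 95% exact binomial intervals for counting error only (horizontal lines), 2-fold marked by dotted lines and the span of the 10 endothelial markers in green. Of the 34 carriers, 20 lie within the span for Cx30-/- against C57BL6 WT and 12 for Cx30-/- against C57BL6-BALB/c WT, where 7 carriers lie past 2-fold. The share of all genes within the span was not counted.

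Against C57BL6 WT, 0 of the 34 carriers were 2-fold higher or lower in Cx30-/-, where 1.42% of the 14776 genes with at least 50 normalized counts in 1 of the libraries compared were 2-fold higher and 1.26% were 2-fold lower. At any size, 25 of the 34 were higher in Cx30-/-, against 49.3% of all genes. When libraries were scaled to the endothelial markers, 16 were higher and 18 lower, with the median log2 ratio of all genes at -0.22. The ratios ran from -0.56 for Slc29a4 to 0.71 for Slco1a4 on the log2 scale.

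Against C57BL6-BALB/c WT, 7 of the 34 carriers were at least 2-fold higher in Cx30-/- and 0 were 2-fold lower, where 3.96% of 14891 genes were higher and 4.73% lower by that measure. The 7 were Slco1a4, Slc39a8, Slc38a5, Slc40a1, Slc19a3, Slc16a1 and Slc22a8, which carry amino acids, monocarboxylates, organic anions, vitamins and metals. The count was 12 higher when libraries were scaled by their total counts, where 718 of all genes were 2-fold higher and 586 lower. It was 0 higher with 8 lower when they were scaled to the endothelial markers. Under that scaling 46 of all genes were 2-fold higher and 7224 lower, so the lower count is not particular to the carriers. Just inside the 2-fold limit lay Slc22a8 and Slc16a1, and just outside it lay Slco2b1 (0.99) and Slc16a4 (0.98). At any size, 25 of the 34 were higher, against 50.3% of all genes, but under endothelial scaling the majority reversed, with 10 higher and 24 lower. The median log2 ratio of all genes was then -0.97.

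Between the WT libraries, 1 carrier, Slc40a1, was 2-fold lower in C57BL6-BALB/c WT and 0 were higher, against 2.02% and 1.41% of 14791 genes. The C57BL6-BALB/c WT library was the lowest of the 3 libraries for 24 of the 34 carriers, against 41.2% of 14979 genes. This too turned with the scaling. With the size factors used, 29 of the 34 were lower in C57BL6-BALB/c WT than in C57BL6 WT, where the median log2 ratio of all genes was 0.00. When libraries were scaled to the endothelial markers, 9 were lower, and the median log2 ratio of all genes was 0.75.

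Setting Cx30-/- against both WT libraries, 23 of the 34 carriers lay above both, against 36.4% of 14979 genes, and 7 lay below both, against 36.9%. Scaled to the endothelial markers, these counts became 9 above and 17 below. The shares of all genes were not counted under that scaling, so these counts cannot be called particular to the carriers. That scaling moved the median log2 ratio of all genes by -0.22 against C57BL6 WT and -0.97 against C57BL6-BALB/c WT. The 7 below both were Slc27a1, Slc29a1, Slc12a2, Slc5a6, Slco3a1, Slc19a2 and Slco2a1, and Slc7a5, Slc29a4, Slc6a9 and Slc5a3 lay between the WT libraries. Both counting intervals lay beyond 0 for 20 of those above (18.2% of all genes) and for 2 of those below (20.7%), Slc27a1 and Slc19a2. Only Slco1a4 was at least 1.5-fold above both WT libraries (3.17% of all genes), and 0 carriers were 1.5-fold below both (4.5%).

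The median log2 ratio of the 34 carriers was 0.17 for Cx30-/- over C57BL6 WT, 0.68 for Cx30-/- over C57BL6-BALB/c WT and -0.45 for C57BL6-BALB/c WT over C57BL6 WT, and each changed sign, to -0.04, -0.28 and 0.29, when libraries were scaled to the endothelial markers. That scaling moved the median of all genes, which was within 0.01 of 0 in each comparison, by -0.22, -0.97 and 0.75. The 10 endothelial markers, which include Pecam1, Cdh5 and Cldn5, had medians of 0.19, 0.86 and -0.67 and moved in the same direction as each other in every comparison. They ranged from 0.07 to 0.50, from 0.76 to 1.36 and from -1.14 to -0.60. Their part in the ratios of the carriers was not tested.

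Set against that span, 20 carriers lay within it for Cx30-/- over C57BL6 WT, 12 below it and 2, Slco1a4 and Slc39a8, above it. For Cx30-/- over C57BL6-BALB/c WT, 12 lay within it, 21 below it and 1, Slco1a4, above it. Between the WT libraries, 10 lay within it, 23 above it and 1, Slc40a1, below it. The share of all genes within the span was not counted. The lower and upper quartiles of the log2 ratio of all genes were -0.20 and 0.18 against C57BL6 WT, where the upper quartile lay inside the span. They were -0.36 and 0.37 against C57BL6-BALB/c WT, and -0.27 and 0.26 between the WT libraries. The carriers within the span in all 3 comparisons were Slc38a5, Slc16a1, Slco1c1, Slco2b1, Slc19a3, Slc30a1 and Slc35f2. The 10 carriers outside it in all 3 were Slc7a5, Slc3a2, Slco2a1, Slco3a1, Slc19a2, Slc6a9, Slc5a6, Slc29a1, Slc12a2 and Slc27a1.

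**Figure D3:**
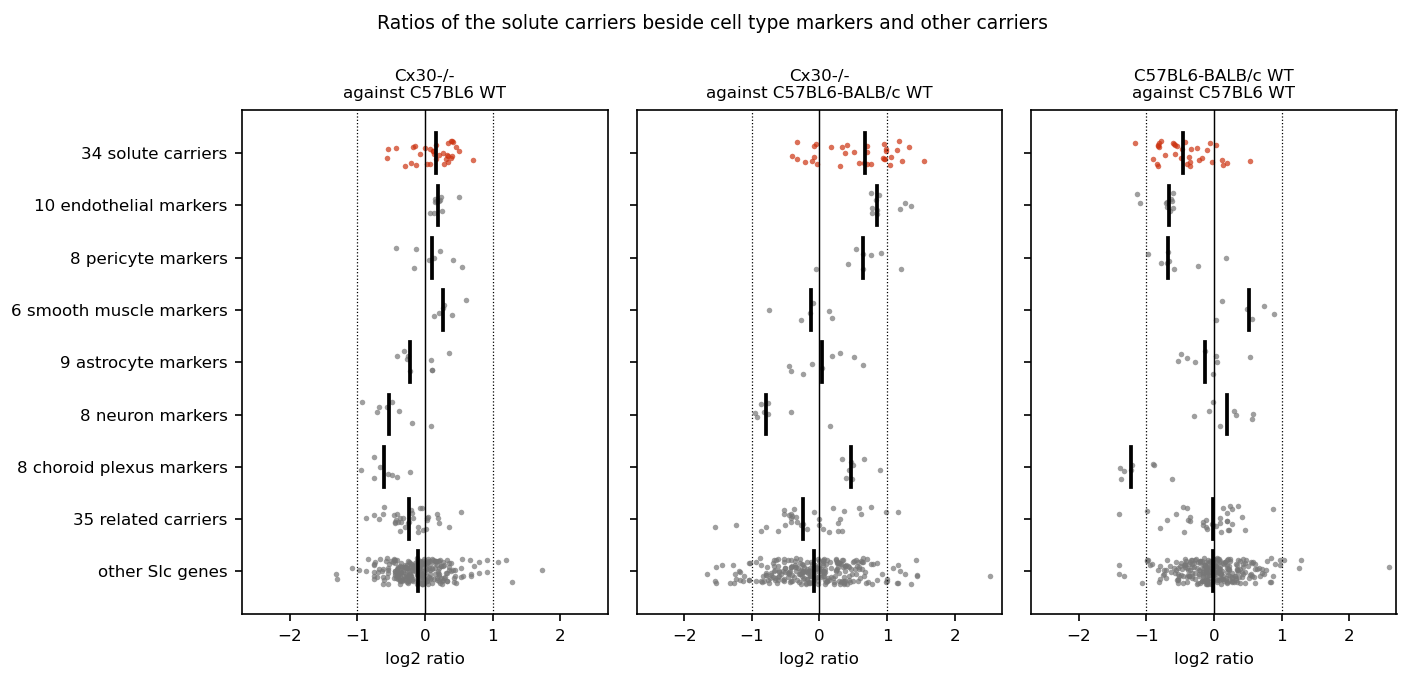
Log2 ratios of normalized counts for the 34 solute carriers (red) and for cell type markers, related carriers and all Slc genes outside the 34, related carriers included (grey), 1 point per gene with at least 50 normalized counts in a compared library, with the median of each list as a black bar and 2-fold marked by dotted lines. The medians of the carriers (0.17, 0.68 and -0.45) lie on the same side of 0 as those of the endothelial markers in each panel and change sign when libraries are scaled to those markers.

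Other cell types of the vessel preparations moved too. The 8 pericyte markers had median log2 ratios of 0.10, 0.64 and -0.67 in the same order of comparisons, and the 9 astrocyte markers had -0.22, 0.04 and -0.13. Smooth muscle markers (6 genes) had 0.27, -0.12 and 0.53, and thus lay on the other side of 0 from the endothelial and pericyte markers in the comparisons with C57BL6-BALB/c WT. The 8 neuron markers had -0.53, -0.79 and 0.20, the 6 oligodendrocyte markers -0.40, -0.33 and -0.37, and the 6 microglia markers -0.22, 0.09 and -0.37. Fibroblast markers (6 genes) had 0.24, 0.45 and -0.28, ependymal markers (4 genes) had 0.62, 0.87 and -0.25, and red cell markers (4 genes) had 1.28, 2.04 and -0.94, each with the same signs as the carriers. The part of these lists in the ratios of the carriers was not tested.

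Related carriers outside the 34 were taken from a list of 36 genes of the same families, of which 35 passed 50 normalized counts. Their median log2 ratios were -0.24, -0.24 and -0.01 in the same order of comparisons, and 9 of the 35 were higher in Cx30-/- than in C57BL6 WT. Against C57BL6-BALB/c WT, 13 of the 35 were higher. Of the 35, 0 were 2-fold different from C57BL6 WT in Cx30-/-, whereas against C57BL6-BALB/c WT 1 was 2-fold higher, Slc1a5 (1.17), and 2 were 2-fold lower, Slc16a7 (-1.55) and Slc2a13 (-1.23), on the log2 scale. Examples are Slc2a3, the glucose carrier of neurons, with 3029 normalized counts in C57BL6 WT, 3273 in C57BL6-BALB/c WT and 1805 in Cx30-/-, and Slc1a5, a carrier of neutral amino acids, with 1191, 597 and 1343. The 351 genes with a symbol in Slc that are not among the 34 carriers, of which 258 passed the minimum, include these related carriers and had medians of -0.10, -0.08 and -0.02.

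Several transcript rows were present for 16 of the 34 carriers, and 18 had 1 row. The rows of a carrier share exons and hence reads, so they are not independent. Over the rows past the minimum, the median span of the log2 ratio within a carrier was 0.08 against C57BL6 WT and 0.07 against C57BL6-BALB/c WT. The widest spans were 0.63 for Slco3a1 and 0.78 for Slc6a9 in these comparisons. The Slco1c1 row with the largest count is annotated as a target of nonsense-mediated decay, and the protein-coding row had nearly the same values, with log2 ratios of 0.12 and 0.94 in either row. Slc38a5, Slc19a3 and Slc39a8 kept log2 ratios above 1 against C57BL6-BALB/c WT in every row.

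**Figure D4:**
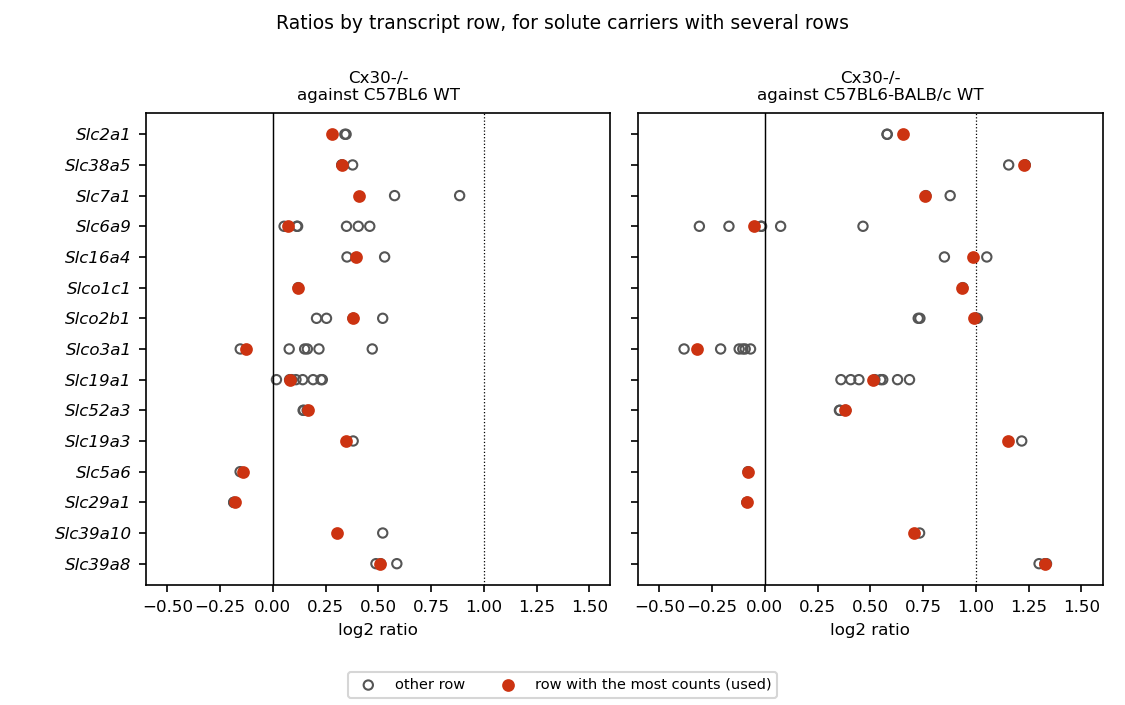
Log2 ratios of normalized counts by transcript row for the solute carriers with at least 2 rows past 50 normalized counts, with the row used filled red and the other rows as open circles, in Cx30-/- against each WT library. The rows of most carriers lie close together, and those of Slco3a1 and Slc6a9 spread most.

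The lengths behind the levels per kilobase are those in the files. They equalled the lengths in GENCODE M21 for 14 of the 34 carriers. The Slc6a9 row used is 13555 bases long in the files and 456 in GENCODE M21, and the next row, of 3479 bases, had 1763, 1933 and 1912 normalized counts, so the level of Slc6a9 per kilobase is understated. The lengths of Slc5a3 were 2840 and 10913 bases, those of Slco2a1 were 4035 and 7122, and those of Slco1a4 were 3586 and 2252. Ratios between libraries do not use the length.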

How the data were processed

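RNA of 3 brain vessel libraries, 1 per group, was sequenced in reads of 50 bases. Groups were taken from the sample labels. The authors filtered the reads with Eoulsan, aligned them with Bowtie 0.12.7, discarded reads matching more than once, and deposited for each of 82813 transcripts an unnormalized count of alignments over its exons. For each row the authors' files further give the count divided by a library total, as a fraction, and the deposited length of the transcript and of its uncovered part, in bases. The totals, recovered from the deposited fractions, were 24830975, 21170766 and 20654144 for C57BL6 WT, C57BL6-BALB/c WT and Cx30-/-.

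GENCODE M21 named 69375 rows (83.8%). The other rows were left out. Positions in the files run to 197054592 on chromosome 1, where GRCm38 annotation ends at 195323493, so coordinates printed here are those of GRCm38 in GENCODE M21, found by transcript identifier. Scaling used median-of-ratios size factors, as in DESeq 1.6.10, which the authors used. Intervals were computed with scipy 1.17.1 and TMM factors with edgeR 4.0.16. A gene was called at 2-fold or more with at least 50 normalized counts in a compared library. The calculation was tested on simulated data.

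The members and lists were chosen with earlier results of these data known. All carriers are named. Full values are given for those called in a comparison, 1.5-fold above or below both WT libraries, or highest in their class, and values of others illustrate their class. Alternatives were 5 scalings, the sum of rows, the longest row, a pseudocount of 1, other count minimums and a 1.5-fold threshold.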

Additional observations from a re-analysis of the deposited data

How the results depend on the processing

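Scaling to the 10 endothelial markers changed the most. It moved the median log2 ratio of the carriers to -0.045 for Cx30-/- over C57BL6 WT, -0.28 for Cx30-/- over C57BL6-BALB/c WT and 0.29 between the WT libraries. It also put 9 carriers above and 17 below both WT libraries, and the shares of all genes doing so were not counted under it. The 2-fold counts became 0 higher and 8 lower against C57BL6-BALB/c WT, where 46 of all genes were higher and 7224 lower. Between the WT libraries they became 1 higher and 0 lower, where 3980 of all genes were higher and 36 lower. The 8 ratios called in the main setting kept their sign under it, but this was fixed in advance. A called ratio is at least 1 in size on the log2 scale. The scaling moved the median of all genes by less, -0.97 against C57BL6-BALB/c WT and 0.75 between the WT libraries. Total-count scaling gave 12 carriers 2-fold higher and a median of 0.74 against C57BL6-BALB/c WT, where 718 of all genes were 2-fold higher and 586 lower. A 1.5-fold threshold gave 1 carrier higher against C57BL6 WT, where 726 of 14776 genes were higher and 865 lower. Against C57BL6-BALB/c WT it gave 18 carriers higher, where 2106 of 14891 genes were higher and 2204 lower. Between the WT libraries it gave 12 carriers lower, where 1085 of 14791 genes were higher and 1189 lower. Of the 102 single ratios, 100 left their counting interval under endothelial scaling, 19 under total-count scaling, 2 with the longest row, 1 with the sum of rows, 1 with upper-quartile scaling and 0 with TMM, pairwise size factors or a pseudocount of 1. Removing the count minimum, or asking for it in both libraries, could not change a call among the carriers, because all 34 passed it in every library. The cause of these changes was not tested. No paired analysis was possible because each group has 1 library, and no replicate could be left out. Depth limited Slc5a3 and Slco2a1 most, whose counts were the lowest of the 34. The rows of both are also shorter than in GENCODE M21, at 2840 against 10913 bases and 4035 against 7122. The part of these lengths in the low counts was not tested.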
